A study of Mus musculus with 12 samples.

Results

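The genes described here are Cd80, Cd86, Cd274, Pdcd1lg2, Cd83, Cd9, Cd40 and Icam1, which encode surface proteins for T cell costimulation, PD-1 ligation and adhesion. They were taken from a list of markers linked to tissue-active eosinophils, 8 of the 54115 genes to which reads were assigned. The series measured RNA of eosinophils sorted from 5 untreated male FVB/NJ mice that were 20 weeks old and ate chow. There were 4 libraries of blood (mice 2807, 2771, 2683 and 2668), 4 of gonadal adipose tissue (mice 2846, 2807, 2683 and 2668) and 4 of subcutaneous adipose tissue (mice 2846, 2807, 2771 and 2668). Live cells bearing CD45, CD11b and Siglec-F were sorted, so the gate did not require a marker found only on eosinophils. Adipose tissue, but per the labels not blood, was first incubated with collagenase type II (1 mg/mL) for 45 min at 37 C. Tissue and digestion therefore cannot be told apart in any comparison with blood.

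CD80 and CD86 are the B7 ligands that bind CD28 or CTLA-4 on T cells. PD-L1 (Cd274) and PD-L2 (Pdcd1lg2) bind the inhibitory receptor PD-1. CD40 receives CD40 ligand from T cells, CD83 is a surface protein of activated antigen-presenting cells, CD9 is a tetraspanin carried by eosinophils, and ICAM-1 is the ligand of the integrins LFA-1 and Mac-1. In many immune cells NF-kB, AP-1 and STAT factors act at the promoters of these genes after stimulation.

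Promoter sequences are shown for reference, and their part in the changes between blood and fat was not tested. RefSeq promoter windows (GRCm38.p6) were at hand for 5 of the 8 genes, but not for Cd86, Cd83 and Cd40. The 250 bases before the transcription start are printed 5′ to 3′ for the 4 that held a motif searched, all on the plus strand. Capitals mark the matches. The windows lie at chr16:38458683-38458932 (Cd80), chr19:29367188-29367437 (Cd274), chr19:29410669-29410918 (Pdcd1lg2) and chr9:21015690-21015939 (Icam1).
Cd80: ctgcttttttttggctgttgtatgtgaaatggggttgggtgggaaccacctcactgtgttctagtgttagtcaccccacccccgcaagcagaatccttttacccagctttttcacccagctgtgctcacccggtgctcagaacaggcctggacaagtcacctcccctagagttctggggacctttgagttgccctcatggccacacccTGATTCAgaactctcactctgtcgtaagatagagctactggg
Cd274: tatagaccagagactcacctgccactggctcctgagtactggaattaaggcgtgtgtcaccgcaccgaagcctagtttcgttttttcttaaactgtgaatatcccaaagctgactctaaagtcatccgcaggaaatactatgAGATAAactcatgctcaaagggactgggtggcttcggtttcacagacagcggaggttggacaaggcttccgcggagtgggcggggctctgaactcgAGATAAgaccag
Pdcd1lg2: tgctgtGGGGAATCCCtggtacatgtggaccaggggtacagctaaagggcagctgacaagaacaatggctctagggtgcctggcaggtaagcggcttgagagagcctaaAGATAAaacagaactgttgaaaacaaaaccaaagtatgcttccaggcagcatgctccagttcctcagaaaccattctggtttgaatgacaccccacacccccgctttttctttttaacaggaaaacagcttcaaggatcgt
Icam1: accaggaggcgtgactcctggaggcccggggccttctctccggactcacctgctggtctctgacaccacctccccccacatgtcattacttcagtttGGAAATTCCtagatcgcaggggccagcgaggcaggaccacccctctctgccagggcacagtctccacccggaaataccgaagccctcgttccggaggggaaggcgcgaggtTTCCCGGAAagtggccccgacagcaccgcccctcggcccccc

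The Cd80 window precedes Cd80-201. Cd80-202 starts further upstream, at chr16:38455561, and took 61.5%, 50.3% and 40.1% of Cd80 reads in blood, gonadal and subcutaneous adipose. Its own promoter is not shown. Both strands were searched in all 32851 windows. Cd80 held 1 AP-1 motif (TGANTCA), 42 to 36 bases before the start, which 6.75% of all windows held. Icam1 held an NF-kB core (GGANNTTCC) at 153 to 145 bases, found in 3.59% of windows, and a STAT motif (TTCNNNGAA) at 42 to 34 bases, found in 7.02%. Pdcd1lg2 held the NF-kB consensus at 244 to 235 bases, present in 7.25% of windows. The core and the consensus share letters, but none of the matches shown overlap. The GATA motif AGATAA, present in 9.99% of windows, stood in Cd274 at 108 to 103 and at 12 to 7 bases and in Pdcd1lg2 at 141 to 136 bases. The CRE (TGACGTCA) and the core of the interferon-stimulated response element (ISRE) were found in 1.55% and 2.98% of windows and in none of the 5 genes, and Cd9 held none of these motifs. A form of the ISRE core shorter by 1 letter (GAAANNGAA), tried after the matches were known, was found in 7.13% of windows, with 1 match each in Cd9 and Cd274 that the capitals do not mark. These are letter matches in the reference and no binding was measured.

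For Cd83 the sequence of interest lies inside the gene. Nearly all of its reads were given to Cd83-202, an annotated transcript that keeps a 95-base intron of the coding transcript Cd83-201. The intron, at chr13:43785251-43785345 on the plus strand of GRCm38, is printed with its GT and AG ends in capitals.
Cd83 intron: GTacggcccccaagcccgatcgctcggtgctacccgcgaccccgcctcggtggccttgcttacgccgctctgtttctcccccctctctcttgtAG

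The libraries held 12477671 to 23734940 estimated reads, apart from the subcutaneous library of mouse 2846 with 4379954. Mitochondrial ribosomal RNA made up 28.1% of that library and 4.66% to 8.79% of each other one. The blood library of mouse 2807 was the highest of the blood libraries for summed macrophage (973.8 CPM), dendritic cell (1702 CPM), monocyte (2174 CPM) and B cell (499.5 CPM) markers. Dendritic cell markers summed to 64.05 to 262.6 CPM in the other blood libraries. That subcutaneous library also had fibroblast and progenitor markers at 4180 CPM, against 260 to 429.8 CPM in the rest of its depot, and endothelial markers at 159.6 CPM, against 2.134 to 10.72 CPM. The blood library of mouse 2771 had erythroid markers at 8353 CPM, against 17.74 to 143.5 CPM in the other blood libraries. The edgeR comparisons, ratios and transcript shares were repeated without subcutaneous 2846 and blood 2807 together, and without each single library. All 11 eosinophil and sort markers were detected in every group, and their sums were 9080 to 10400 CPM in blood, 3700 to 8290 CPM in gonadal adipose and 3390 to 8040 CPM in subcutaneous adipose. The granule protein genes among them were low, with Epx at 4.45 ± 2.02, 4.49 ± 1.86 and 3.95 ± 3.24 CPM (SD, n = 4) in blood, gonadal and subcutaneous adipose. Of the 11 markers, edgeR called 5 lower and none higher in each depot, where 11.6% and 11.4% of all genes were lower. These were Ptprc, Itgam, Ccr3, Cebpe and Gata1, while Siglecf, Adgre1 and Il5ra were not called. The Ccr3 calls were lost under 7 and 6 of 22 alternative settings, and those of Ptprc under 2 and 7.

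All 8 genes passed the filter on low counts. Against blood, 4 of 8 were higher and none lower in gonadal adipose, where 15.4% of all 15367 genes tested were higher and 27% differed in either direction. Against blood, 5 of 8 were higher and none lower in subcutaneous adipose, where 15.4% of all genes were higher and 26.8% differed. Between the depots none of the 8 differed by edgeR, against 0.00651% of all genes (1 gene). In that comparison none of the 8 had an unadjusted p under 0.05, and none was called by DESeq2 or limma-voom. At an unadjusted p under 0.05, 4 of the 8 passed in gonadal and 6 in subcutaneous adipose, where 39.7% and 40% of all genes did. DESeq2 called 4 and 6 of the 8 higher, against 17.1% and 19% of all genes, and limma-voom 4 and 5, against 23.5% and 16.5%. Cd80, Cd86, Cd274 and Cd83 were the genes called in both fat depots, and Cd40 was the additional gene in subcutaneous fat. The median log2 fold change of the 8 genes was 1.31 in gonadal and 1.79 in subcutaneous adipose, against 0.08 and 0.07 over all genes. Both comparisons use the same 4 blood libraries. The 8 genes were chosen with earlier results of these data known, so their counts beside all genes are a description and not a test. Without both subcutaneous 2846 and blood 2807, 5 of the 8 were higher in each depot, against 18.6% of all genes in gonadal and 14.1% in subcutaneous adipose. Without blood 2771, 4 were higher in each depot, against 9.63% and 9.96%.

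**Figure D1:**
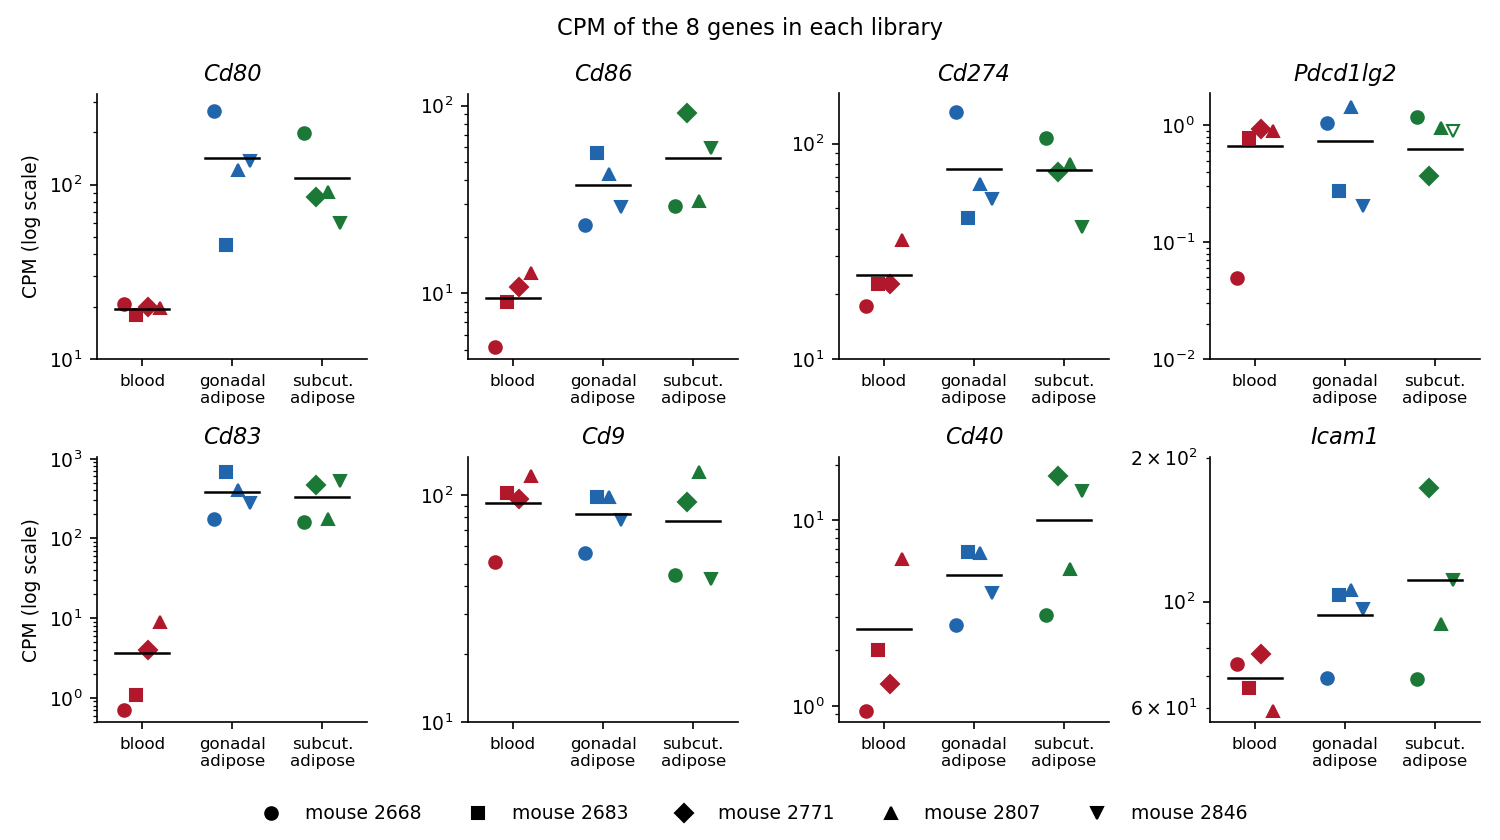
CPM (log scale) of the 8 genes in each of the 12 libraries; symbols are mice, colours are groups and black lines are means of 4 libraries. The open triangle marks the subcutaneous library of mouse 2846, which had 0 Pdcd1lg2 reads and is drawn at the level of 3 counts. Cd83 runs from 0.695 to 8.9 CPM in blood and from 160 to 682 CPM in fat, while Cd9 covers a similar range in the 3 groups.

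Cd80, one of the B7 ligands (ENSMUSG00000075122, chr16:38455561-38496335, plus strand), was the most even of the genes in blood. It stood there at 19.6, 19.8, 17.8 and 20.6 CPM in mice 2807, 2771, 2683 and 2668. In gonadal adipose it reached 137, 121, 45.2 and 265 CPM in mice 2846, 2807, 2683 and 2668. In subcutaneous adipose it reached 60.5, 91, 84.9 and 198 CPM in mice 2846, 2807, 2771 and 2668. Every adipose library lay above every blood library, and mouse 2668 was the highest in both depots. Cd80 rose 7.3-fold in gonadal (log2 fold change 2.87, SE 0.487, edgeR adjusted p = 0.00165) and 5.6-fold in subcutaneous adipose (2.48, SE 0.48, adjusted p = 0.00353). In bulk RNA of sorted cells, fewer cells of a type and less RNA per cell cannot be told apart, which holds for each gene below. Non-overlap of this kind was seen, upward, for 18.6% of genes in gonadal and 13.8% in subcutaneous adipose.

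Cd86, the other B7 ligand (ENSMUSG00000022901, chr16:36603869-36666081, minus strand), was lower than Cd80 in blood. Its blood values were 12.9, 10.8, 9.01 and 5.16 CPM in mice 2807, 2771, 2683 and 2668. Gonadal adipose had 29, 43.2, 56.3 and 23.1 CPM in mice 2846, 2807, 2683 and 2668. Subcutaneous adipose had 59.9, 31.1, 91.5 and 29.4 CPM in mice 2846, 2807, 2771 and 2668. Again no adipose library overlapped blood, but here mouse 2668 was the lowest of each depot. Cd86 rose 3.99-fold in gonadal (log2 fold change 2, SE 0.419, edgeR adjusted p = 0.00494) and 5.58-fold in subcutaneous adipose (2.48, SE 0.427, adjusted p = 0.00164). The call depends on which transcripts are counted. With protein-coding transcripts alone the log2 fold changes were 1.36 and 1.55, with adjusted p of 0.0815 and 0.0548.

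That dependence rests on Cd86-203, an annotated transcript of 2 exons and 975 bases without a coding sequence. Of its bases 845 are not in the coding transcript Cd86-201, which has 8 exons. Cd86-203 took 15.6% ± 8.3 of Cd86 reads in blood, 41.8% ± 2.08 in gonadal adipose and 52.1% ± 21.1 in subcutaneous adipose (SD, n = 4). The share of reads in the coding transcript was 81.6%, 53.1% and 40.1%, and it was lower in every adipose library than in every blood library. The exact permutation test gave p = 0.0286 for each depot against blood, the smallest it can give with 4 against 4. After adjustment over 15 such tests the value was 0.0714. The subcutaneous library of mouse 2846 had the lowest coding share, 12%, and the other 3 of that depot had 43.7% to 55.4%.

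The balance between the B7 ligands differed widely among adipose libraries of one depot. On the log2 scale, with 0.5 CPM added, the ratio of Cd80 to Cd86 was 0.585 to 1.9 in blood. It ran from -0.314 (mouse 2683) to 3.49 (mouse 2668) in gonadal and from -0.107 (mouse 2771) to 2.73 (mouse 2668) in subcutaneous adipose. The group means of 1.07, 1.72 and 1.04 for blood, gonadal and subcutaneous adipose did not differ beyond that spread (exact permutation p = 0.486, 0.971 and 0.571, adjusted over 6 tests 0.789, 0.971 and 0.789).

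Cd274, which encodes PD-L1 (ENSMUSG00000016496, chr19:29367455-29388095, plus strand), has a single annotated transcript. It stood at 35.7, 22.2, 22.3 and 17.7 CPM in the blood of mice 2807, 2771, 2683 and 2668. The gonadal libraries had 55.4, 65.2, 45.2 and 140 CPM in mice 2846, 2807, 2683 and 2668. The subcutaneous libraries had 41, 80.2, 73.7 and 106 CPM in mice 2846, 2807, 2771 and 2668. The groups did not overlap with blood, although the highest blood value lay close to the lowest subcutaneous one, and mouse 2668 was again the highest in both depots. Cd274 rose 3.13-fold in gonadal (log2 fold change 1.65, SE 0.379, edgeR adjusted p = 0.00813) and 3.09-fold in subcutaneous adipose (1.63, SE 0.379, adjusted p = 0.00872). All 22 alternative settings kept both calls, with log2 fold changes of 1.18 to 1.89 and 1.43 to 2.08. An antisense gene, AC119228.1, overlaps Cd274 and had 310.7 reads over all libraries. The available sources do not say whether counting used strand, and reads from genes that overlap may be mixed.

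Pdcd1lg2, which encodes PD-L2 (ENSMUSG00000016498, chr19:29410919-29471161, plus strand), was near the detection limit in every group. It had 51 reads over the 4 blood, 47 over the gonadal and 34 over the subcutaneous libraries. Blood values were 0.89, 0.939, 0.786 and 0.0496 CPM (mice 2807, 2771, 2683, 2668), gonadal values 0.204, 1.44, 0.275 and 1.04 CPM (mice 2846, 2807, 2683, 2668), and subcutaneous values 0, 0.951, 0.372 and 1.18 CPM (mice 2846, 2807, 2771, 2668). The library at 0 was the shallow one, in which 3 counts correspond to 0.898 CPM, and the ranges overlapped throughout. The log2 fold change against blood was 0.14 in gonadal (95% interval -2.11 to 2.39) and -0.01 in subcutaneous adipose (-2.46 to 2.45). Changes of up to about these bounds were not detectable at this depth. The antisense gene A930007I19Rik overlaps Pdcd1lg2 and had 153 reads, more than Pdcd1lg2 itself.

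The log2 ratio of Cd274 to Pdcd1lg2, with 0.5 CPM added, was 3.98 to 5.05 in blood, 5.08 to 6.51 in gonadal and 5.8 to 6.41 in subcutaneous adipose. Its mean stood 1.48 and 1.67 above that of blood, but with so few Pdcd1lg2 reads the ratio depends on the value added. With 0.1 CPM added, blood ran from 4.42 to 6.89 and overlapped gonadal (5.41 to 7.51) and subcutaneous adipose (6.26 to 8.68). The exact permutation p, adjusted over 6 ratio tests, was 0.0857 in each depot with 0.5 CPM and 0.257 with 0.1 CPM, so no difference in this ratio was shown.

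Cd83 (ENSMUSG00000015396, chr13:43784775-43803132, plus strand) had the largest log2 fold change of the 8 genes in both depots. Blood held 8.9, 3.99, 1.1 and 0.695 CPM in mice 2807, 2771, 2683 and 2668. Gonadal adipose held 282, 410, 682 and 176 CPM in mice 2846, 2807, 2683 and 2668. Subcutaneous adipose held 528, 177, 475 and 160 CPM in mice 2846, 2807, 2771 and 2668. The lowest adipose library stood far above the highest blood library, and mouse 2668 had the lowest value in each of the 3 groups. Cd83 rose 106-fold in gonadal (log2 fold change 6.73, SE 0.904, edgeR adjusted p = 0.000463) and 91.7-fold in subcutaneous adipose (6.52, SE 0.896, adjusted p = 0.000569). Without the blood library of mouse 2807 the log2 fold changes were 7.60 and 7.38.

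These Cd83 reads came with an unusual split between transcripts. Cd83-202, the transcript with the intron printed above, took 100% of the estimated reads in blood, 97.3% ± 0.525 in gonadal and 97.4% ± 0.357 in subcutaneous adipose (SD, n = 4). The coding transcript Cd83-201 was listed at 0 in every blood library and took 2.66% and 2.58% in the depots. The transcripts share 2063 bases, which is 95.6% of Cd83-202. Cd83-202 alone has the 95-base intron, and Cd83-201 alone has 410 bases upstream of the start of Cd83-202. Reads on the shared bases fit either transcript, so the split rests on the short unshared stretches and on Salmon's model. The blood libraries held 150, 85, 21 and 14 Cd83 reads (mice 2807, 2771, 2683 and 2668). At the mean share in fat, these would hold 3.94, 2.23, 0.551 and 0.367 coding reads. For mice 2683 and 2668 that is less than a whole read, so a 0 there says little. The coding share was lower in every blood library than in every fat library (exact permutation p = 0.0286 in each depot, adjusted p = 0.0714). It did not pass the threshold after adjustment, and it rests on few expected reads.

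Cd40, the receptor for T cell CD40 ligand (ENSMUSG00000017652, chr2:165055627-165072948, plus strand), was low throughout. Blood had 6.17, 1.32, 1.99 and 0.943 CPM in mice 2807, 2771, 2683 and 2668. Gonadal adipose had 4.07, 6.7, 6.75 and 2.74 CPM in mice 2846, 2807, 2683 and 2668, and subcutaneous adipose had 14.4, 5.47, 17.3 and 3.09 CPM in mice 2846, 2807, 2771 and 2668. Both depots overlapped blood because the blood library of mouse 2807 stood above the others. Cd40 rose 3.85-fold in subcutaneous adipose (log2 fold change 1.94, SE 0.674, edgeR adjusted p = 0.0486). In gonadal adipose its log2 fold change was 0.96 (95% interval -0.46 to 2.38, adjusted p = 0.304). The subcutaneous call was the least secure of the 9 calls made. It held under 9 of 22 settings and had an adjusted p of 0.0745 with mouse as a block. Leaving out a single library gave adjusted p from 0.0102 to 0.145, and leaving out the blood library of mouse 2807 gave a log2 fold change of 2.77. Without both blood 2807 and subcutaneous 2846, Cd40 passed the threshold in gonadal adipose too (log2 fold change 1.84, adjusted p = 0.041).

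Icam1, the adhesion ligand (ENSMUSG00000037405, chr9:21015985-21028817, plus strand), was well expressed in all groups. Blood stood at 59, 77.8, 66.1 and 74 CPM in mice 2807, 2771, 2683 and 2668. Gonadal adipose stood at 96.3, 106, 103 and 69.1 CPM in mice 2846, 2807, 2683 and 2668, and subcutaneous adipose at 111, 89.9, 173 and 68.9 CPM in mice 2846, 2807, 2771 and 2668. In each depot 3 libraries exceeded all blood values, and mouse 2668 alone fell inside the blood range. The log2 fold change was 0.43 in gonadal (95% interval -0.10 to 0.96, edgeR adjusted p = 0.21) and 0.68 in subcutaneous adipose (0.15 to 1.21, adjusted p = 0.0572). The subcutaneous value passed the threshold without the subcutaneous library of mouse 2668 (0.86, adjusted p = 0.018), with DESeq2 (adjusted p = 0.0374) and with another scaling, RLE (adjusted p = 0.0479). Icam1-202, a transcript with a retained intron, took 26.5%, 33.9% and 38.6% of reads in blood, gonadal and subcutaneous adipose. The coding share did not pass the exact permutation test in either depot (adjusted p = 0.286 and 0.122). The antisense gene Gm47079 overlaps Icam1 with 60 reads in all.

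Cd9, the tetraspanin (ENSMUSG00000030342, chr6:125460266-125494791, minus strand), was at a similar total level in blood and fat. It ran from 50.6 to 122 CPM in blood, 55.8 to 98.6 CPM in gonadal and 42.8 to 127 CPM in subcutaneous adipose, so the ranges overlapped fully. Its log2 fold change was -0.17 (95% interval -0.96 to 0.61, edgeR adjusted p = 0.765) and -0.27 (-1.06 to 0.52, adjusted p = 0.617). Its transcript shares differed in level between blood and fat, but not past the threshold after adjustment. Cd9-203, with a retained intron, took 2.53% ± 1.13 of reads in blood, 13.2% ± 6.23 in gonadal and 17% ± 8.68 in subcutaneous adipose (SD, n = 4). The coding share was 97.2%, 85.9% and 83%, lower in every adipose library than in any blood library (exact permutation p = 0.0286 in each depot, adjusted p = 0.0714). Gm28809 and Gm26728, which overlap Cd9 on the other strand, had 212 and 157 reads.

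**Figure D2:**
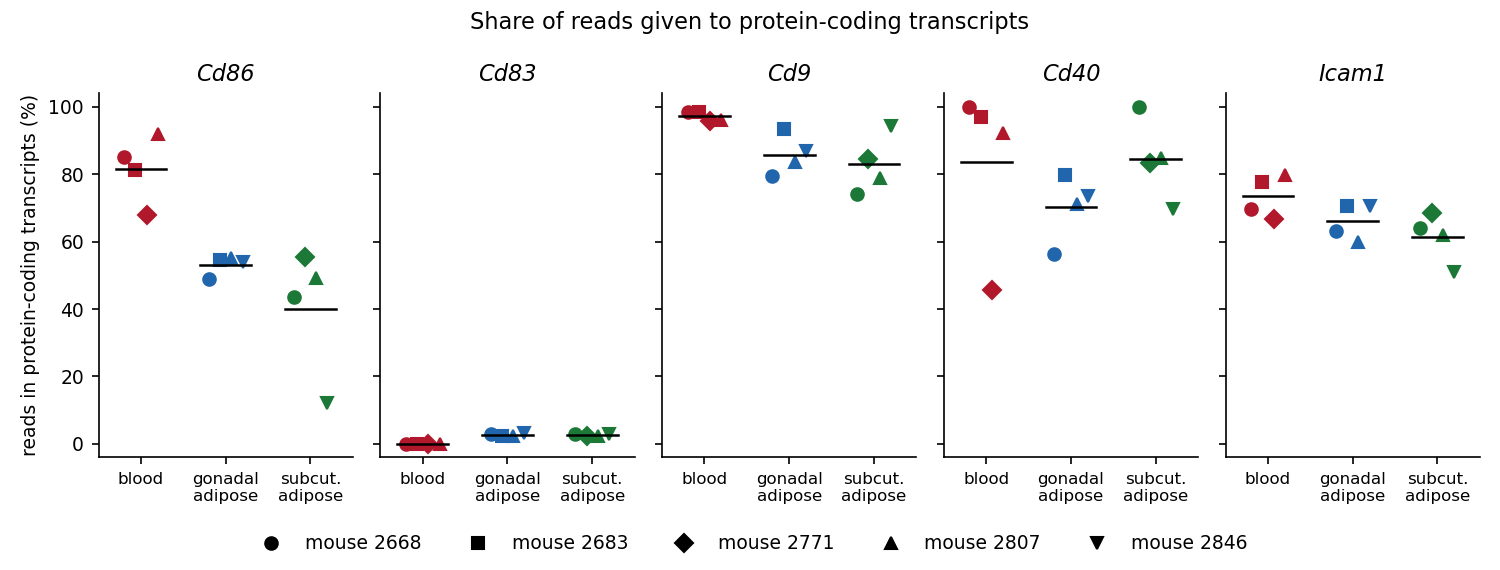
Percent of each gene's estimated reads given to protein-coding transcripts in the 12 libraries, for the 5 genes with enough reads and more than 1 kind of transcript; symbols are mice and black lines are means of 4. For Cd86 and Cd9 each fat library lies below each blood library, and it is below 4% everywhere for Cd83.

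**Figure D3:**
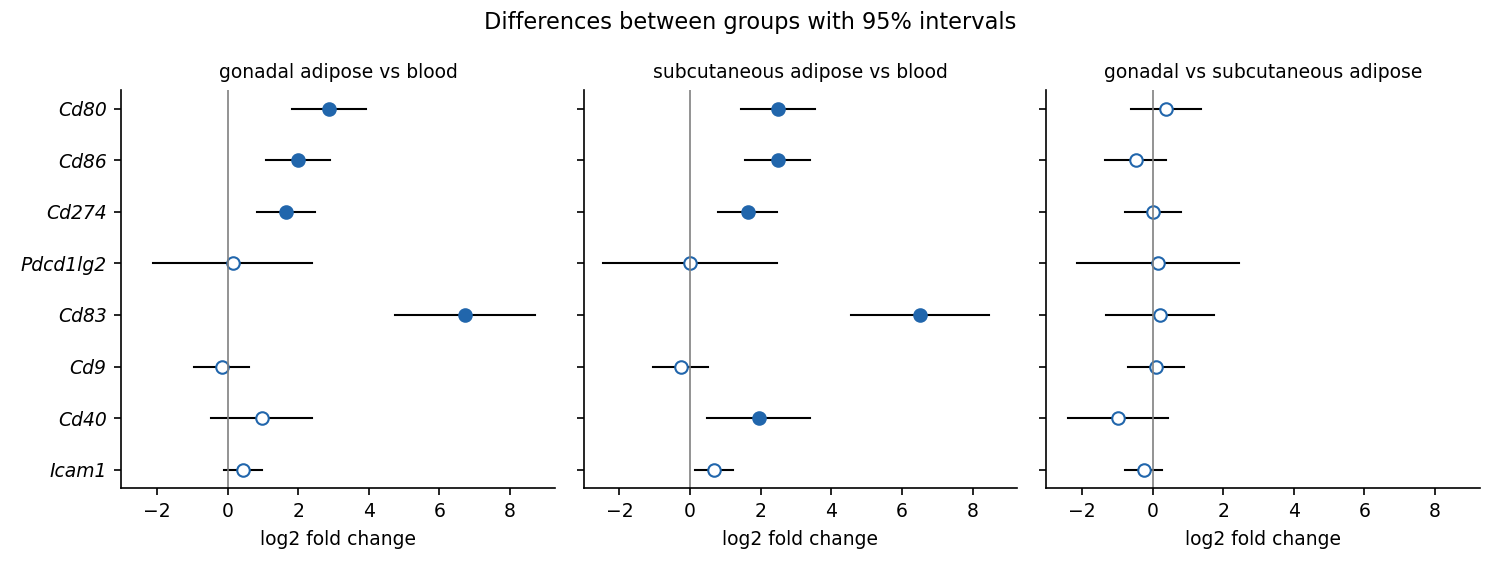
Log2 fold changes of the 8 genes in the 3 comparisons with 95% intervals; filled points passed the threshold of 0.05 on edgeR's adjusted p. Cd83 stands at 6.73 and 6.52 against blood, Pdcd1lg2 has the widest interval in the comparison with subcutaneous fat, and no gene is filled between the depots.

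Between gonadal and subcutaneous fat the intervals bound how far the genes could differ. For Cd274 the log2 difference (gonadal minus subcutaneous) was 0.02, with a 95% interval of -0.78 to 0.82. For Cd80 it was 0.38 (-0.61 to 1.37), for Cd86 -0.48 (-1.36 to 0.39) and for Cd83 0.21 (-1.32 to 1.74). Cd40 had the largest difference in size, -0.98 (-2.40 to 0.44, edgeR adjusted p = 0.744). The libraries of the depots overlapped for all 8 genes, while 1.94% of all genes tested were higher and 1.69% lower in gonadal fat without overlap. None of these shows that the depots are alike. The intervals for Cd274, Cd9 (-0.69 to 0.88) and Icam1 (-0.77 to 0.28) lie within 1 log2 unit.

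Levels of different genes were compared on the deposited TPM scale, which corrects for length. In blood the order of mean levels was Cd9 (29.4 TPM), Icam1 (9.68), Cd80 (2.89), Cd274 (2.31), Cd86 (1.87), Cd40 (0.903), Cd83 (0.676) and Pdcd1lg2 (0.143). Cd9 and Icam1 stood clear of each other and of the rest, while each neighbour from Cd80 down to Pdcd1lg2 overlapped the next. In gonadal adipose Cd83 moved to the top with 63.3 TPM, followed by Cd9 (29), Cd80 (25), Icam1 (13.7), Cd86 (10.8), Cd274 (7.63), Cd40 (2.25) and Pdcd1lg2 (0.178). There Cd40 stood below Cd274, and Pdcd1lg2 below Cd40, without overlap, and the other neighbours overlapped. Subcutaneous adipose had nearly the same order, with Cd83 at 48.3, Cd9 at 28.4, Cd80 at 17.8, Cd86 at 15.2, Icam1 at 15, Cd274 at 6.91, Cd40 at 2.31 and Pdcd1lg2 at 0.145 TPM. In that depot only Pdcd1lg2 was separate from its neighbour. Per length, Cd274 exceeded Pdcd1lg2 in all 3 groups without overlap.

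Within each fat depot the genes did not all peak in the same libraries. In gonadal adipose Cd80 and Cd274 were highest in mouse 2668 and lowest in mouse 2683, while Cd83, Cd86 and Cd40 were highest in mouse 2683 and lowest in mouse 2668. In subcutaneous adipose Cd80 and Cd274 were again highest in mouse 2668 and lowest in mouse 2846. There Cd83, Cd86, Cd40 and Icam1 were lowest in mouse 2668. Mouse 2668 was thus the highest library for Cd80 and the lowest for Cd86 in both depots.

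Marker sums of several cell types also differed among these libraries. In gonadal adipose the sum of 14 macrophage markers was 1286, 1518, 3827 and 4843 CPM in mice 2668, 2846, 2807 and 2683. This is the library order of Cd83, of Cd86 and of Cd40, and the reverse of that of Cd80. In subcutaneous adipose the sum was 1481, 2753, 4029 and 5887 CPM in mice 2668, 2807, 2846 and 2771, the order of Cd86, Cd40 and Icam1. The dendritic cell sum had that same subcutaneous order, while Cd83 had the order of the monocyte sum there. In gonadal adipose neither the dendritic cell nor the monocyte sum had the order of Cd83, Cd86 or Cd40. The sum of the 11 eosinophil and sort markers was 3696, 5972, 6168 and 8287 CPM in gonadal mice 2683, 2846, 2807 and 2668, which is the order of Cd274. It was 3388, 4758, 7190 and 8041 CPM in subcutaneous mice 2846, 2771, 2807 and 2668, the order of Cd274, Cd80 and Pdcd1lg2. In blood, Cd83 and Cd86 followed the order of the dendritic cell and monocyte sums, with mouse 2807 highest. Some of these sums rest mostly on a few genes. In gonadal 2683, Fn1 had 6200 of the 7524 CPM of the monocyte sum. Cd74, H2-Aa and H2-Ab1 had 4390, 2180 and 1700 of the 8649 CPM of the dendritic cell sum there. Csf1r, which is on both the macrophage and the monocyte list, had 370 of the 407.7 CPM of the macrophage sum in blood 2668.

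**Figure D4:**
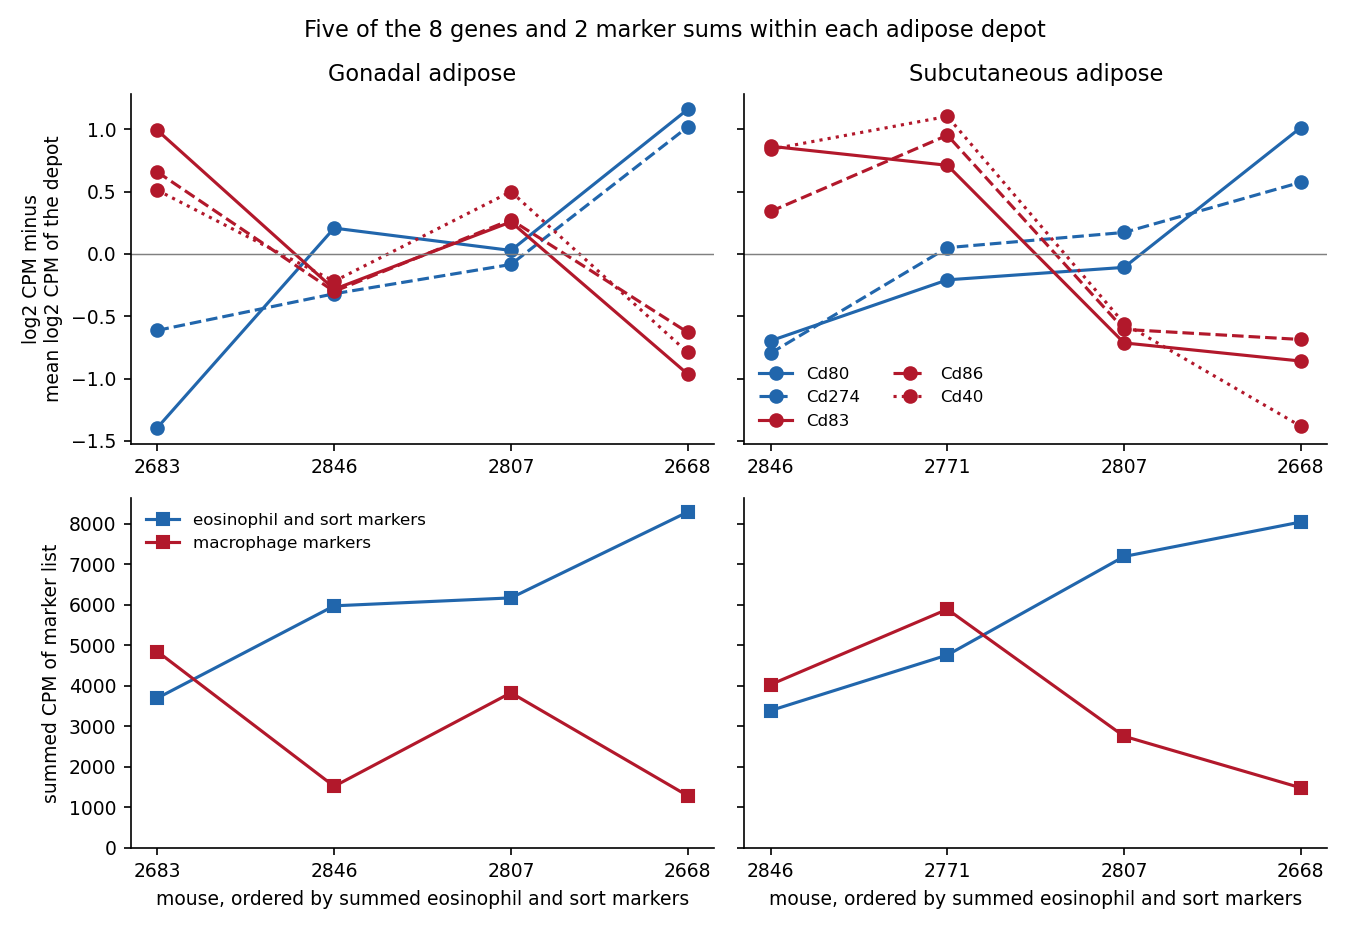
Upper panels show log2 CPM of Cd80, Cd274, Cd83, Cd86 and Cd40 minus the mean of each gene over the 4 libraries of a depot; lower panels show summed CPM of the eosinophil and sort markers and of the macrophage markers. Mice are ordered by the eosinophil and sort sum. Cd80 and Cd274 (blue) end highest in mouse 2668 and the other genes (red) lowest there, as does the macrophage sum at 1286 and 1481 CPM.

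With 4 libraries a group, these orders are a description without a test. In all, 96 orders were compared (8 genes, 4 marker lists, 3 groups), of which 18 were identical and 7 reversed. The macrophage sum was 386 to 974 CPM in blood, and 8 of 14 macrophage markers were higher in gonadal and 9 of 14 in subcutaneous adipose, none at 0 in all libraries of a group. Dendritic cell markers summed to 64.1 to 1700 CPM in blood, 1060 to 8650 CPM in gonadal and 944 to 3270 CPM in subcutaneous adipose, with none at 0. Of 12 tested dendritic cell markers, 4 were higher in gonadal and 2 in subcutaneous adipose, and 7 and 6 without blood 2807. With all libraries 15.4% of all genes were higher in each depot, near the subcutaneous dendritic cell share. The macrophage counts fell to 5 in gonadal adipose without blood 2668, to 4 without gonadal 2683, and to 5 in subcutaneous adipose without blood 2771. The gonadal dendritic cell count was 2 without blood 2771 or 2683 or gonadal 2846 or 2683, and the subcutaneous one was 1 without blood 2771, 2683 or 2668 or subcutaneous 2771. The part of these cells in the level of Cd83, Cd86 and Cd40 was not tested.

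Related pathway genes were examined by lists, and all counts use edgeR's adjusted p over all genes. For comparison, 15.4% of all genes tested were higher in each depot, and 11.6% and 11.4% were lower in gonadal and subcutaneous adipose. Of 13 tested B7 family and other T cell costimulatory ligands, 2 rose and 1 fell in gonadal and 2 rose and 2 fell in subcutaneous adipose, with medians of 0.10 and -0.14. The part of this list that rose was near the share of all genes. Tnfsf9, the 4-1BB ligand, rose by 4.93 (SE 1.03) and 4.73 (SE 1.03) on the log2 scale, from 0.289 CPM in blood to 9.22 and 8.19 CPM. Pvr, the poliovirus receptor and ligand of TIGIT, rose by 3.50 (SE 0.72) and 3.59 (SE 0.726). Vsir, which encodes the B7-like checkpoint protein VISTA, fell by 1.03 (log2 fold change -1.03, SE 0.247) in subcutaneous adipose. In gonadal adipose Vsir had -0.77, a call lost without any of 6 single libraries (adjusted p up to 0.0953). Lgals9, which encodes galectin-9, had -0.49 in subcutaneous adipose (adjusted p = 0.0359), a call lost under 11 of 22 settings. Vtcn1 and Cd70 had no reads in any group. Receptors that these proteins meet on T cells were low, with 6 genes summing to 0.733 to 11.2 CPM in blood, 3.46 to 22 CPM in gonadal and 4.41 to 44.6 CPM in subcutaneous adipose. Among 4 tested receptors only Cd28 was called, in subcutaneous adipose (3.09, SE 1.03, adjusted p = 0.0441), and 13 of 22 settings lost that call. T cell markers summed to 11.3 to 34.9 CPM in blood, 2.44 to 5.33 CPM in gonadal and 26.7 to 234 CPM in subcutaneous adipose. Of 9, 5 were lower in gonadal adipose, among them Cd3g (log2 fold change -2.42, edgeR adjusted p = 0.0387). That Cd3g call was lost under 13 of 22 settings. In subcutaneous adipose 3 of the 9 were higher, among them Cd3g (log2 fold change 2.40, adjusted p = 0.0334) and Cd4 (3.85, adjusted p = 0.0316). The count of 3 higher was 0 without blood 2771, blood 2683 or subcutaneous 2771, 1 without blood 2668 or subcutaneous 2846 or with mouse as a block, and 7 with DESeq2 and 5 with limma-voom. The part of T cells in the Cd28 value was not tested.

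CD40 signals through TRAF adaptors and NF-kB. Of 19 genes on that list, 8 rose and 3 fell in each depot, with medians of 0.55 in gonadal and 0.63 in subcutaneous adipose. The feedback inhibitors Tnfaip3 and Nfkbia led. Tnfaip3 rose by 4.42 (SE 0.353) and 4.95 (SE 0.362) on the log2 scale, and Nfkbia by 3.66 (SE 0.28) and 4.06 (SE 0.285). The adaptor Traf3, a brake on non-canonical NF-kB, fell by 1.05 and 0.83 on the log2 scale (log2 fold changes -1.05 and -0.83), and the subcutaneous call was lost with an effective length offset (adjusted p = 0.0804). Without the blood library of mouse 2668, 5 genes of this list rose in gonadal adipose. Over the 22 settings 5 to 10 rose and 2 to 5 fell in gonadal adipose. In subcutaneous adipose 5 to 11 rose and 0 to 4 fell.

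Interferon and JAK-STAT genes carry inputs to PD-L1 and PD-L2, and more of them fell than rose. Of 21, 3 rose and 8 fell in gonadal and 2 rose and 6 fell in subcutaneous adipose (medians -0.35 and -0.21). Irf9, a subunit of the interferon-stimulated factor complex, fell by 1.35 and 1.24 (log2 fold changes -1.35 and -1.24), and Stat6, the IL-4 signal transducer, by 1.03 and 0.99 (-1.03 and -0.99). Socs3, a feedback inhibitor, rose by 2.28 (SE 0.492) in subcutaneous adipose. With mouse as a block 5 fell in gonadal adipose, and 4 fell without blood 2771 or blood 2683 and 5 without gonadal 2807. The gonadal count of 3 higher became 1 without blood 2771, 2683 or 2668, gonadal 2807 or subcutaneous 2771, and the subcutaneous count of 2 became 1 without blood 2668. The subcutaneous count of 6 lower ran from 3 to 7 over the 22 settings.

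Genes that govern PD-L1 protein rather than its RNA included 12 on the list, of which 4 were lower in each depot and 1 higher in subcutaneous adipose. Cmtm6, a protein that protects PD-L1 from degradation, had log2 fold changes of -0.61 and -0.62 (edgeR adjusted p = 0.0484 and 0.0451). Those calls were lost under 12 and 15 of 22 settings. Hip1r, which directs PD-L1 to lysosomes, had -1.12 and -0.83 (adjusted p = 0.014 and 0.0493), calls lost under 1 and 14 settings. Cmtm4, which acts with Cmtm6, rose by 2.21 (SE 0.587) in subcutaneous adipose, with an adjusted p of 0.0648 when mouse was a block. These counts were fragile, and over the 22 settings 0 to 4 were lower in gonadal and 1 to 4 in subcutaneous adipose. In gonadal adipose 2 were lower when any 1 blood library, or gonadal 2846, 2807 or 2683, was left out. In subcutaneous adipose 1 was lower when any 1 blood library, gonadal 2846 or 2807, or subcutaneous 2846 or 2771 was left out.

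Of 16 tested partners of ICAM-1 and related adhesion molecules, 8 fell and none rose in gonadal adipose, and 7 fell and 1 rose in subcutaneous adipose (medians -0.63 and -0.96). Itgal, the alpha chain of LFA-1, fell by 2.92 and 2.09 (log2 fold changes -2.92, SE 0.294, and -2.09, SE 0.284), from 834 CPM in blood to 110 and 195 CPM. The beta chain Itgb2, shared by LFA-1 and Mac-1 and named here after its values were seen, had log2 fold changes of -0.09 and -0.59 and was called in neither depot (adjusted p = 0.832 and 0.0956). Spn, which encodes the sialoglycoprotein CD43, fell by 2.03 and 1.87 (-2.03 and -1.87). Vcam1 was the gene that rose in subcutaneous adipose, by 5.21 (SE 1.07). Neutrophil markers were lower in the same comparisons, with 6 of 8 tested called lower in each depot. Ly6g and Camp were at 0 in all fat libraries but were also low in blood, at no more than 2.97 and 0.517 CPM. The sum of all neutrophil markers was 2910 to 4260 CPM in blood, 374 to 802 CPM in gonadal and 409 to 1300 CPM in subcutaneous adipose. The part of neutrophils in the lower adhesion genes was not tested. Of 18 tetraspanins and CD9 partners, 3 rose and 2 fell in each depot, near the shares of all genes. Tspan3 rose by 3.97 (SE 0.633) and 3.64 (SE 0.628), and the integrin chain Itga4 fell by 1.51 and 1.37 (-1.51 and -1.37). Without the subcutaneous library of mouse 2846, 5 of this list rose in gonadal adipose, and without the blood library of mouse 2668, 1 fell in subcutaneous adipose.

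Other genes linked to tissue-active eosinophils moved mostly upward, with 9 of 15 tested higher and 2 lower in each depot (medians 1.47 and 1.12). The neutrophil chemoattractant Cxcl2 and the prostaglandin synthase Ptgs2 led that list. Leaving out blood 2771, blood 2683 or gonadal 2807 left 1 lower gene in gonadal adipose. Immediate early and dissociation-response genes were higher in 25 of 28 cases in gonadal and 26 of 28 in subcutaneous adipose, and none was lower (medians 3.35 and 3.64). Their part in the rise of Cd80, Cd86, Cd274 and Cd83 was not tested.

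Genes whose centred log2 CPM over the 12 libraries lay closest to each of the 8 were named by root mean square difference, among 8757 genes of at least 5 CPM. For Cd80 they were Mat2a (0.335) and Mylk3 (0.401), for Cd274 Nup98 (0.258) and Zbtb10 (0.264), and for Cd86 Casp4 (0.163) and Sfmbt1 (0.23). For Cd83 the nearest were Cacna1a (0.723) and Slco2b1 (0.756), on a range of 9.7 log2 units. For Cd40 they were Esr1 (0.371) and Ifi203 (0.398), for Icam1 Pex13 (0.16) and Pde4dip (0.201), and for Cd9 Erlec1 (0.287) and Imp4 (0.306). Pdcd1lg2 had no close neighbour, with Mdp1 (0.774) and Rcn1 (0.776) nearest on a range of 3.66 log2 units. The measure shares libraries and depth and is a description.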

How the data were processed

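RNA of sorted eosinophils was sequenced from total RNA with a stranded low-input kit, per the labels. The tools named in the submitters' processing notes are Salmon 1.6.0, DESeq2 1.30.1 and Trim Galore 0.6.4, and the build is mm10. The authors' deposited tables give estimated counts, TPM and effective lengths for 140992 transcripts. Their annotation release is not stated there.

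Of the transcripts, 139791 matched GENCODE M21 (GRCm38). The 1201 unmatched ones held 0.351% to 0.538% of reads and were left out. Estimated counts were summed per gene, and rounded. The test was the robust quasi-likelihood F test of edgeR 4.0.16 (R 4.3.3) after filterByExpr by group and TMM scaling. A single fit of all 12 libraries had group as its term, and p-values were adjusted by Benjamini-Hochberg over 15367 genes. CPM values use TMM-scaled library sizes, and SE is the log2 fold change divided by the square root of F. The deposited TPM served for levels between genes, and the deposited effective lengths, another unit, for an alternative. Ratios and transcript shares were tested by two-sided exact permutation (scipy 1.17.1), which took no account of libraries from the same mouse. Floors cover counting error only. Intervals and p-values of fold changes reflect a spread between libraries that was estimated over all 12 in a single fit. That fit treated libraries of the same mouse as independent.

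Mouse numbers mark the animal and so pair samples. Deviations from group means correlated by -0.111 to 0.358 over 9 same-mouse pairs (mean 0.0842, against -0.0188 for different mice). Mouse as a block was an alternative, as were DESeq2, limma-voom, RLE and upper quartile scaling, no filter on low counts, protein-coding transcripts only, a length offset, fits of only the groups compared and leaving out single libraries. The 8 genes and all lists were chosen with earlier results of these data known. Named are the 8 genes, genes of the pathway lists (up to 2 per direction, called, with at least 5 CPM in the higher group), eosinophil markers and the 2 nearest genes of each of the 8. Of these, the ones that bear on the text are printed. Leaving out subcutaneous 2846 and blood 2807 together, and a shorter ISRE form, were added after the data were seen. The scripts were tested on simulated data with known changes.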

Additional observations from a re-analysis of the deposited data

Results flagged for a closer look

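In blood, the share of Cd40 reads given to protein-coding transcripts was 45.7% in mouse 2771, and the nearest other library had 92.4%. The gap was 0.86 of the range of the 4 libraries, above the critical value of 0.829. Of 39 groups of 4 examined in this way 1 was singled out, and chance alone singles out about 1 in 20. Cd40 had 28 reads in that library.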

How the results depend on the processing

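Cd80, Cd274 and Cd83 kept their direction and their calls against blood under all 22 alternatives, and so did Cd86 in all but the count of protein-coding transcripts. The number of genes tested changed with the setting, for example 15367 in the main fit and 18420 with DESeq2 against blood. The totals that follow are therefore counts and not shares. With protein-coding transcripts alone, 3 of the 8 genes were called in subcutaneous adipose, and 2689 genes in all. With limma-voom, 6484 genes were called in gonadal adipose. Between the depots 167 genes were called by DESeq2 and 0 by limma-voom, with protein-coding transcripts only, with only the 2 groups compared and without both subcutaneous 2846 and blood 2807. Leaving out single libraries gave 2753 to 5075 genes called in gonadal and 2737 to 4256 in subcutaneous adipose, 0 to 7 between the depots, and 4 or 4 to 6 of the 8 genes against blood. Causes were not tested. In the paired analysis, with mouse as a replicate block, 3277, 2910 and 0 genes and 4, 4 and 0 of the 8 were called in gonadal and subcutaneous adipose and between the depots, and Cd40 alone of the 8 changed its call. With an effective length offset the log2 fold changes of Cd86 were 2.48 and 3.13. Ratios and transcript shares passed no adjusted threshold with all 12 libraries. Without subcutaneous 2846 and blood 2807 they could not pass it, so that repeat decides nothing. The smallest exact permutation p is 0.0571 with 3 libraries against 4, and non-overlapping shares of 3 against 3 gave 0.1. Depth limits Pdcd1lg2 and Cd40 most.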
